A study of Rattus norvegicus with 20 samples.

Results

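A set of 478 genes carried p65 peaks mainly 1h after partial hepatectomy, in livers of both diets. They were chosen from the authors' peak lists: a gene was a member if it had a listed peak on at least 5 of the 6 arrays of 1h, on at most 1 of the 6 of 0h and on at most 1 of the 8 of 6h, with both diets counted together. The lists name 14368 genes, so the members are 3.33% of them, and 23.7% of the 2015 genes with peaks on at least 5 arrays of 1h. Their time course is what chose them, so it is described here with no test.

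The livers came from male wild-type Sprague Dawley rats, 8 to 10 weeks old. For 5 weeks, 1 group took 36% of its calories as ethanol in a liquid diet, and pair-fed littermates got carbohydrate in place of the ethanol. Each rat then lost 70% of its liver. Tissue cut out at the operation (left lateral and median lobes) gave the 0h arrays and the remnant (right median, right lateral and caudate lobes) gave the arrays of 1h and 6h, so the step from 0h to later times and the lobe cannot be told apart. Chromatin was precipitated with a polyclonal antibody against p65 and hybridised to promoter tiling arrays (ChIP-chip). There were 20 arrays: for each diet 3 of 0h, 3 of 1h and 4 of 6h. The labels number them as biological replicates, and identifiers that came with the arrays point to 16 animals, 4 of them with 2 arrays. By the same identifiers, all 0h arrays but ethanol 0h replicate 2 came from an array run with no array of 1h or 6h. For them time and array run cannot be told apart either. The labels themselves name no animals, so a p-value here speaks for the scatter among these arrays, part of which may be technical.

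NF-kB is a family of dimeric transcription factors, of which p65 is the main activating subunit. In resting cells inhibitor proteins hold it in the cytoplasm, and signals from receptors such as those for tumour necrosis factor and interleukin-1 release it to the nucleus. After partial hepatectomy it is among the first factors to be activated in the remnant, together with immediate early genes, whose transcription needs no new protein. Whole liver was assayed, so fewer cells of a type and less binding per cell cannot be told apart.

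Promoter sequences of 5 members show what kinds of start the set holds. The 250 bases before the RefSeq start are given 5′ to 3′ (build GRCr8). Peaks were counted over the 250 bases before the start in the authors' lists. The build of those lists is not named, so the printed bases were not matched to the peaks. Mt2A, a metal-binding metallothionein (chr19:10838709-10838958, minus strand), had peaks before its listed start on all 6 arrays of 1h, and capitals mark its E-box and TATA element. Hpd, an enzyme of tyrosine breakdown (chr12:39041996-39042245, plus strand), had them on 3, and capitals mark an AP-1 site and a GC box in a promoter poor in CpG. Il1r1, the receptor for interleukin-1 (chr9:50034133-50034382, plus strand), had them on 3. Traf7, a signalling ubiquitin ligase (chr10:14056695-14056944, minus strand), had its peaks elsewhere, as had Btg2, an antiproliferative immediate early gene (chr13:48087691-48087940, minus strand), and capitals mark a match to the kappaB decamer in the first pair and the CRE palindrome in Btg2.
Mt2A: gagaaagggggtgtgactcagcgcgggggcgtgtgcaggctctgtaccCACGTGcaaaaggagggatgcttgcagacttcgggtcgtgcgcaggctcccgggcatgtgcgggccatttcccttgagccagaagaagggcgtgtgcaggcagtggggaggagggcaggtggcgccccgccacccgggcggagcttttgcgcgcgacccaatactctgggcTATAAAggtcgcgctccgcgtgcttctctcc
Hpd: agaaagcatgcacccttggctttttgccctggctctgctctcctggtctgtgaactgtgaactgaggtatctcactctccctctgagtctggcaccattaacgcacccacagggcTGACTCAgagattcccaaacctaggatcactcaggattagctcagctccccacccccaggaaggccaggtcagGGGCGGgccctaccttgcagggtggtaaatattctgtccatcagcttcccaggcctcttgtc
Il1r1: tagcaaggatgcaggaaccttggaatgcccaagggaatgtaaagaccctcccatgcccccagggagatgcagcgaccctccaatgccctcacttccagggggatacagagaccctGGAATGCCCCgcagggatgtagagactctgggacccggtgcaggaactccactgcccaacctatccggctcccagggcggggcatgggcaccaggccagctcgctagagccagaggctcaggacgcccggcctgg
Traf7: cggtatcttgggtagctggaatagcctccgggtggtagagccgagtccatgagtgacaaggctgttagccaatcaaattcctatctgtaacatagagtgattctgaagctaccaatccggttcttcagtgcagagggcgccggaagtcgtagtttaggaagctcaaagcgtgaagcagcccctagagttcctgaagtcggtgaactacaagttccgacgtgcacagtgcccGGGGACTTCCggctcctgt
Btg2: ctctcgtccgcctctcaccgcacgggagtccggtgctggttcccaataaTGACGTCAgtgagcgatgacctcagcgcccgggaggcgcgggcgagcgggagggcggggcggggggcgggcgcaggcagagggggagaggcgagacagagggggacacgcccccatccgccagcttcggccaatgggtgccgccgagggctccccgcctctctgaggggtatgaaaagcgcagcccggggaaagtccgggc

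Of the members, 175 had a peak on all 6 arrays of 1h and 303 on 5. Of those 303, 157 lacked a carbohydrate array and 146 an ethanol array. On carbohydrate arrays of 1h, 396, 427 and 454 members had a peak (replicates 1 to 3), and on ethanol arrays 435, 461 and 392. Outside 1h, 93 members had no peak at 0h, 315 had none at 6h, and 58 had none at either time. The carbohydrate arrays of 0h listed 6, 10 and 7 members, those of 6h 8, 77, 20 and 26, and the ethanol arrays of 6h 4, 6, 7 and 15. Carbohydrate 6h replicate 2, the highest of these (16.1% of members, beside 39.4% of all genes), lay on 1 slide with carbohydrate and ethanol arrays of 1h. Ethanol 6h replicate 1, the lowest of 6h, lay on another such slide, and the part of the slide was not tested.

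The array labelled ethanol 0h replicate 2 stood apart from the other 0h arrays. It listed a peak for 344 members (72.0% of them, beside 34.8% of all genes), while the other 2 ethanol arrays of 0h listed 17 and 1. So 344 of the 385 members with a peak on a single 0h array had it there, and 134 members had no peak on it. It lay on the same slide as carbohydrate 1h replicate 1 and ethanol 1h replicate 1 and, by its identifier, came from the same rat as the latter. Across all 713735 probes its values correlated with those 2 arrays at r = 0.757 and 0.760, with the other 1h arrays at 0.252 to 0.605 and with the other 0h arrays at 0.003 to 0.399. It lay above those 5 arrays in 366 of the 452 member promoters (81.0%, beside 44.1% of all promoters). In the other rat with arrays of 0h and 1h, carbohydrate 0h replicate 2 listed 10 members and carbohydrate 1h replicate 1 listed 396. Whether its label, its slide or its array run plays a part was not tested. The diet comparison at 0h, that of the change from 0h to 1h and the median change from 0h are given with and without it. The diet tests at 1h and 6h also draw on this array, through 1 estimate of the spread over all 20 arrays. With the compared arrays alone, which leaves it out, 0 member promoters passed at 1h and 1 at 6h.

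**Figure D1:**
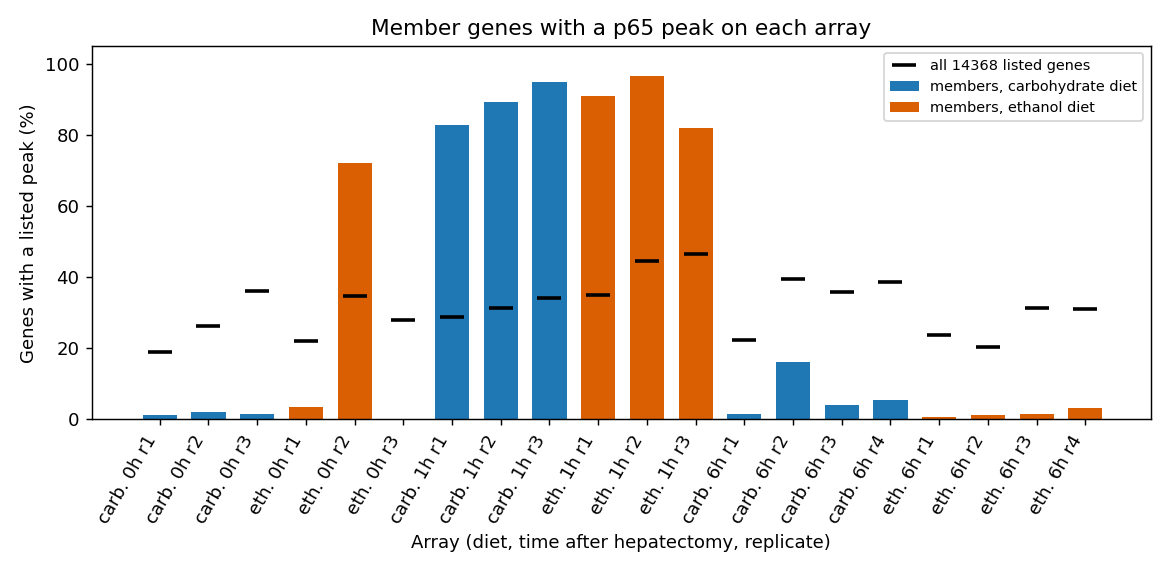
Share of the 478 member genes with a listed peak on each of the 20 arrays (bars, blue for carbohydrate and orange for ethanol), beside the share of all 14368 listed genes (black marks), in percent. The 6 arrays of 1h and the array labelled ethanol 0h replicate 2 (72.0%) stand above all others, of which carbohydrate 6h replicate 2 is the highest at 16.1%.

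Promoter signal, which is read without the peak calls but comes from the hybridisations that chose the members, followed the same order. It is the mean log2 ratio of p65 to reference DNA over the best 500 bp window of each tiled promoter, with the deposited sign turned, since the authors' peaks lay at negative values, and each array centred on its median. The members lie in 452 of 14540 such promoters. Their median signal was 0.52, 0.52 and 0.42 on the carbohydrate arrays of 1h and 0.50, 0.52 and 0.54 on the ethanol arrays of 1h. At 0h it was 0.10, 0.08 and 0.10 with carbohydrate and 0.14, 0.53 and −0.01 with ethanol, where 0.53 is replicate 2. At 6h it was 0.14, 0.25, 0.21 and 0.25 with carbohydrate and 0.06, 0.03, 0.10 and 0.12 with ethanol. The medians of the 6 arrays of 1h and of ethanol 0h replicate 2 thus lay above those of the rest. For 1h the choice of members sets this. The promoters themselves overlapped: the lower quartile on carbohydrate 1h replicate 3 was 0.29 and the upper quartile on carbohydrate 6h replicate 2 was 0.40.

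Averaged over the diets, the median member promoter was 0.35 log2 higher at 1h than at 0h (0.06 over all promoters) and 0.37 higher than at 6h (0.01 over all promoters). Without ethanol 0h replicate 2 the first value was 0.43 (0.08 over all promoters). With the array run as a term it was −0.041 (the run that holds this array is the only one with both times), and the value against 6h was then 0.34. Within slides, 376 and 362 of the 452 promoters were higher on carbohydrate and ethanol 1h replicate 2 than on carbohydrate 6h replicate 2. On the slide of ethanol 6h replicate 1 the counts were 406 and 430. On the slide of ethanol 0h replicate 2 they were 208 and 177, with median differences of −0.03 and −0.05 (for the second, ethanol pair −0.06 over all promoters). These counts cover member promoters alone, with no share over all promoters beside them. The members were chosen for peaks at 1h and few at 6h, so the counts against 6h are a description.

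**Figure D2:**
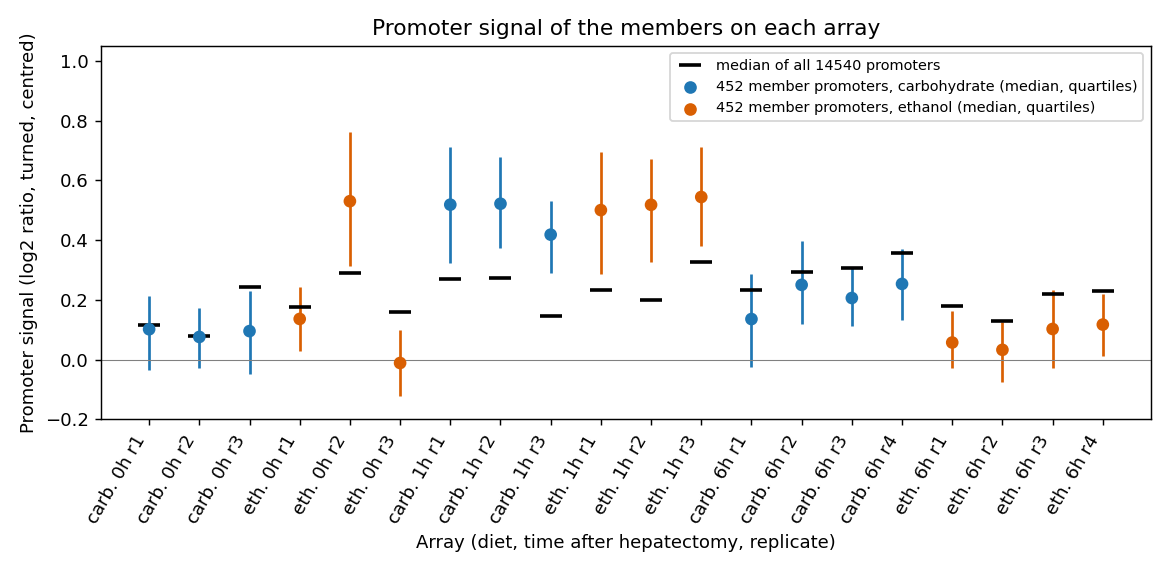
Promoter signal of the 452 member promoters on each array: points are medians, lines run from the lower to the upper quartile, and black marks are medians of all 14540 promoters (log2 ratio). Member medians are 0.42 to 0.54 at 1h, 0.53 on the array labelled ethanol 0h replicate 2 and at most 0.25 elsewhere.

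The members differed in how cleanly 1h stood out. In 131 member promoters (29.0%, beside 3.16% of all promoters, a share the choice of members sets) all 6 arrays of 1h lay above the other 13, ethanol 0h replicate 2 left out. In 17 the mean of 1h lay below that of the other 14 arrays. The window was not always where the peaks were: for 54 members it lay under none of their own 1h peaks. For 72 members the peaks of all 6 arrays of 1h shared a position, for 160 those of 5, for 134 those of 4, and for 112 those of 2 or 3. Members are also not all separate promoters, as 49 of them share 23 tiled regions with another member.

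Gene lists were chosen with earlier results of these data known, so their shares of members, here and below, are a description and no test. Immediate early genes were the list with most members. Of 47 in the peak lists 10 were members (21.3%, beside 3.33% of all genes): Egr1, Jun, Btg2, Gadd45g, Ier2, Ier5, Hes1, Bhlhe40, Pim3 and Csrnp1, which the files call Axud1. Peaks on at least 5 arrays of 1h, inside or outside the rule, were found for 24 of the 47, beside 14% of all genes. In 7 of the 10 all arrays of 1h lay above the 13 others, as in 29.0% of member promoters and 3.16% of all, in a set chosen for being high at 1h. Ier5 did not, with means of 0.28 ± 0.17 at 1h (SD, n = 6) and 0.24 ± 0.05 on 5 arrays of 0h.

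Egr1, a zinc finger factor induced within minutes by growth signals, was the strongest member. Its signal at 1h was 1.67, 1.60 and 1.31 with carbohydrate and 2.21, 1.48 and 1.21 with ethanol, and at 0h 0.19, 0.08 and −0.52 with carbohydrate. With ethanol at 0h it was −0.02, 1.35 and −0.44, the middle value again from replicate 2, and all 8 arrays of 6h lay between −0.71 and −0.06. Apart from that array, 1h did not overlap with the other times.

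Jun, a subunit of the AP-1 factor, ranged from 0.50 to 0.90 at 1h (median 0.78), from −0.18 to 0.17 on the 5 other arrays of 0h and from −0.36 to −0.08 at 6h. Btg2, which slows cell division, ranged from 0.48 to 0.94 at 1h (median 0.76), from −0.21 to 0.06 on those 5 arrays and from −0.22 to −0.03 at 6h. Gadd45g, a stress-response gene that acts on MAP kinases, ranged from 0.79 to 1.16 at 1h (median 0.88), from −0.17 to 0.20 at 0h and from −0.18 to 0.20 at 6h. None of the 3 overlapped between 1h and the other times. On ethanol 0h replicate 2 they had 0.85, 0.40 and 1.00, of which only Btg2 lay below the 1h range.

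Hes1, a repressor downstream of Notch, was the least even of these genes. It had −0.15, 1.11 and 0.88 on the carbohydrate arrays of 1h and 0.34, 1.89 and 1.54 on the ethanol arrays, so replicate 1 of each diet, on 1 slide, was the lowest. On ethanol 0h replicate 2, from the same slide, it had −0.02.

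Members from the NF-kB system were 1 target and 4 regulators. Of 38 listed NF-kB targets in the peak lists only Bcl2l1 was a member (2.63%, beside 3.33% of all genes), and 6 of the 38 had peaks on at least 5 arrays of 1h, which 14% of all genes had. Bcl2l1, which blocks apoptosis, had 0.61, 1.07 and 0.43 on the carbohydrate arrays of 1h and 0.63, 0.80 and 0.75 on the ethanol arrays. It lay between −0.18 and −0.02 on 5 arrays of 0h, at 0.69 on ethanol 0h replicate 2 and between 0.01 and 0.39 at 6h. The 6h values were above those of 0h but did not reach those of 1h.

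Of 23 regulators of the pathway 4 were members (17.4%, beside 3.33% of all genes), and 6 of the 23 had peaks on at least 5 arrays of 1h. Tnfrsf1a, the main receptor for tumour necrosis factor, ranged from 0.52 to 1.28 at 1h (median 0.77), from −0.21 to 0.25 on 5 arrays of 0h and from −0.31 to 0.28 at 6h. Its highest value of all, 1.44, was on ethanol 0h replicate 2. Tab1, an adaptor of the kinase TAK1 that the files call Map3k7ip1, ranged from 0.43 to 1.06 at 1h and reached 0.31 at 0h, 0.08 at 6h and 1.33 on that array. For Il1r1 and Myd88, the adaptor shared by interleukin-1 and Toll-like receptors, 1h overlapped with 6h in the window (lowest of 1h 0.14 and 0.07, highest of 6h 0.39 and 0.40). In the window chosen on the 1h arrays Il1r1 ranged from 0.41 to 0.89 at 1h and from −0.10 to 0.09 at 6h.

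Liver genes made up most of the other listed members. Of 27 liver transcription factors 8 were members (29.6%, beside 3.33% of all genes): Cebpa, Cebpb, Creb3l3, Foxa3, Nr0b2, Nr1i3, Prox1 and Rxra. Peaks on at least 5 arrays of 1h were found for 14 of the 27, beside 14% of all genes. All 8 members had a peak on ethanol 0h replicate 2. Creb3l3, a membrane-bound factor of the liver's stress and lipid response, had 0.80, 0.65 and 0.57 with carbohydrate and 1.25, 0.68 and 0.60 with ethanol at 1h, and no other array but ethanol 0h replicate 2 (0.96) passed 0.24. Cebpb, a factor of acute phase and regeneration, had a mean of 0.66 ± 0.27 at 1h and −0.02 ± 0.24 at 6h (SD, n = 6 and 8), and the ranges overlapped. For Foxa3 the window lay away from the peaks (0.28 ± 0.09 at 1h, SD, n = 6), and the window of the 1h arrays ranged from 0.31 to 1.18 at 1h and from −0.60 to −0.01 at 6h.

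Of 32 acute phase genes 8 were members (25%, beside 3.33% of all genes): Ahsg, Ambp, F2, Hamp, Itih1, Mt2A, Tf and C4a, listed as C4b. Peaks on at least 5 arrays of 1h were found for 22 of the 32, beside 14% of all genes, so most of these 22 fell outside the rule. Mt2A had peaks at its start on all 6 arrays of 1h, but its window, with 1.30 ± 0.50 at 1h (SD, n = 6), lay in the same tiled region at the neighbouring Mt1a. Tf, the plasma iron carrier transferrin, ranged from 0.43 to 0.75 at 1h and reached 0.15 on 5 arrays of 0h and 0.47 at 6h, so 1h and 6h overlapped. F2, prothrombin, ranged from 0.40 to 0.90 at 1h and reached 0.39 at 6h.

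Metabolic genes followed, with 6 of 34 for glucose and amino acids (17.6%, among them Ass1, Hpd, Mat1a, Pklr and Sds). For lipids there were 7 of 37 (18.9%: Angptl4, Apoe, Cpt1a, Dgat2, Insig1, Ppara and Plin2, listed as Adfp), beside 3.33% of all genes. Peaks on at least 5 arrays of 1h were found for 15 of the 34 and 13 of the 37, beside 14% of all genes. Hpd had peaks on all 6 arrays of 1h and on none of the other 14. Its signal at 1h was 0.61, 0.91 and 0.52 with carbohydrate and 0.85, 1.07 and 0.34 with ethanol, beside −0.19 to 0.05 on 5 arrays of 0h and −0.10 to 0.19 at 6h. On ethanol 0h replicate 2 it was 0.73 with no listed peak, inside the 1h range.

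Cpt1a, which lets fatty acids into mitochondria, had 0.62, 0.71 and 0.50 with carbohydrate and 0.46, 1.36 and 1.03 with ethanol at 1h, and at most 0.32 on the 13 arrays of other times that exclude ethanol 0h replicate 2 (0.46). Ppara, the nuclear receptor that drives fatty acid oxidation, ranged from 0.37 to 0.93 at 1h (median 0.59) and reached 0.24 at 6h. Plin2, a coat protein of lipid droplets, ranged from 0.66 to 1.09 at 1h and reached 0.34 at 0h and 0.35 at 6h. All 7 lipid genes had a peak on ethanol 0h replicate 2 (72.0% of members had), and 5 of them had every 1h array above the 13 others (29.0% of member promoters and 3.16% of all had).

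**Figure D3:**
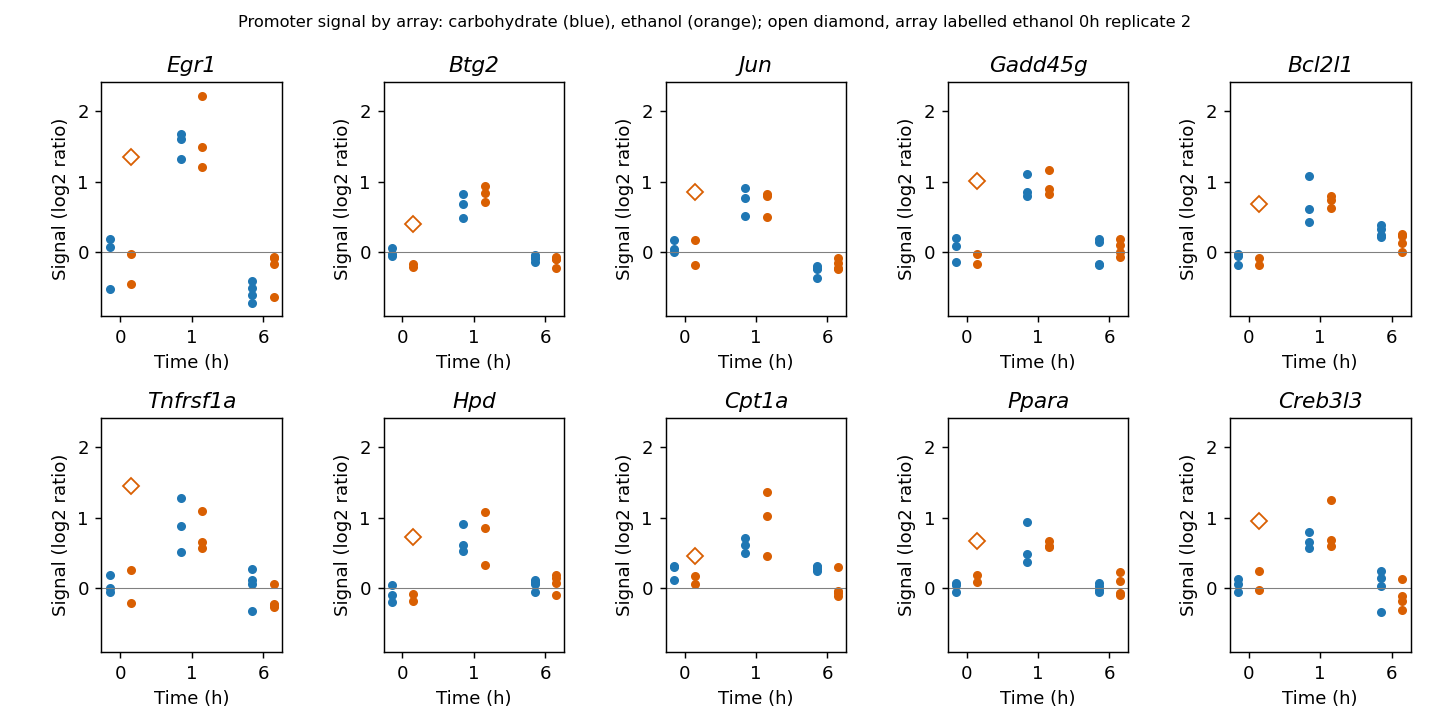
Promoter signal (log2 ratio) of 10 members on every array by time in hours, blue for carbohydrate and orange for ethanol; the open diamond is the array labelled ethanol 0h replicate 2. In all 10 the 1h arrays lie above the filled points of 0h and 6h, and the diamond lies near the 1h range, below it only for Btg2 (0.40). The 10 were picked for display: 29.0% of member promoters and 3.16% of all promoters separate in this way.

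The remaining lists gave 3 members at most. There were 3 of 37 ribosome and translation genes (8.11%, beside 3.33% of all genes: Eif4a1, Rps18 and Rplp0, listed as Arbp), 1 of 24 cell cycle genes (Aurka) and 1 of 29 testis and neuronal genes (Gad2). Of cell type markers, 3 of 14 of hepatocytes were members (21.4%: Ahsg, Ass1 and Tf), 1 of 10 of Kupffer cells and macrophages (10%: C1qc), 1 of 14 of stellate cells (7.14%: Pdgfrb) and 1 of 8 of sinusoidal endothelium (12.5%: Pecam1), the last 3 shares resting on 1 gene each. None of 11 for cholangiocytes and none of 19 for lymphocytes and neutrophils were. These are counts of bound promoters and do not measure the cells present. In all, 52 members belong to the 16 lists and 426 to none.

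The strictest members were 15 genes with peaks on all 6 arrays of 1h and none elsewhere, among them Dhx16, Hpd, Hrh3, Il1r1, Insrr, Klf16, Map4k2, Mif, Mmp15, Ninj1, Synpo, Tcea3, Tex261 and Traf7. The mean signal of the 15 at 1h ran from 0.36 to 0.72. Although none had a peak on ethanol 0h replicate 2, their signal there ran from 0.21 to 0.73 (median 0.50), while their means over the 5 other arrays of 0h ran from −0.10 to 0.28. Mif, an inflammatory cytokine, ranged from 0.48 to 0.95 at 1h and reached 0.17 on 5 arrays of 0h and 0.40 at 6h. Ninj1, a membrane protein of cell rupture, ranged from 0.54 to 0.83 at 1h and reached 0.15 and 0.33. The peaks of a gene did not always share a position. For Hpd, Il1r1, Map4k2, Ninj1 and Tex261 those of all 6 arrays of 1h did, for Klf16, Mmp15 and Traf7 those of 4 at most. The window of Map4k2 lay under none of its own 1h peaks. That of Il1r1, which has the lowest mean (0.36), lay under those of 2 arrays.

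By size, the 10 members whose 1h mean most exceeded the mean of the other 14 arrays were Egr1 (by 1.76), Mt2A (1.08), Scarb1 (0.93), Mknk2 (0.92), Gadd45g (0.85), Cend1 (0.84), B4galt5 (0.82), Btg2 (0.80), Rsph6a (0.79, listed as Rshl1) and Amigo3 (0.78). Mt2A's value comes from the window at Mt1a, under none of its own 1h peaks. Without ethanol 0h replicate 2 among the others, 8 of the 10 stayed in the first 10; Btg2 and Rsph6a (0.83 and 0.84) did not. Scarb1, the receptor for high-density lipoprotein, ranged from 0.47 to 1.31 at 1h and from −0.55 to −0.09 at 6h, with 1.21 on ethanol 0h replicate 2. Mknk2, a kinase of the translation factor eIF4E, ranged from 0.73 to 1.48 at 1h, with 1.47 on that array.

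Values on either side of the rule's limits are given with no test. Among 455 genes with peaks on 4 of 6 arrays of 1h, Abca2 (0.91), Wdr46 (0.91) and Col11a2 (0.90) had the highest 1h means. Of 227 genes with peaks on 2 arrays of 0h, led by Errfi1 (1.69), Eef2 (1.31) and As3mt (1.08), 201 had a peak on ethanol 0h replicate 2 among them. Crp (1.18), Junb (1.02) and Barhl2 (1.01) led the 107 genes with peaks on 2 arrays of 6h. Just inside, with 5 arrays of 1h and 1 each of 0h and 6h, Plin2 (0.88), Zmynd12 (0.86) and Ppard (0.86) led 73 genes.

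The members' sites lay mostly upstream of their starts and not at them, as did the 1h peaks of all genes. The site shared by most 1h arrays was at a median position of −1080 bp, within 500 bp of the start in 83 members (17.4%), over 2000 bp upstream in 158 (33.1%) and over 500 bp downstream in 88 (18.4%). Taken peak by peak, the members' 1h peaks had a median position of −1291 bp, beside −1043 bp for all 1h peaks. Over 2000 bp upstream lay 37.35% of them, beside 32.42% of all 1h peaks, and within 500 bp 16.1%, beside 18.2%. Of the 6h peaks of 421 genes with the opposite time course (at least 6 arrays of 6h, at most 1 of 0h and of 1h), 35.9% lay within 500 bp, beside 21.6% of all 6h peaks. The authors' false discovery rate was at most 0.05 for 51.4% of the members' 1h peaks and 45.1% of all 1h peaks. For genes with 1h peaks outside the rule it was so for 55.1%.

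Sequence could be set beside 364 of the 452 member promoters (80.5%), using 300 bases from RefSeq around the start. Their median G+C content was 59.7% (quartiles 55.3% and 65.4%), beside 57.7% over 10673 promoters of all listed genes. It was 61.0% for 1154 promoters of genes with 1h peaks that fell outside the rule and 39.0% for 333 of the 6h set. The ratio of observed to expected CpG passed 0.6 in 57.1% of member promoters, 53.3% of all and 9.31% of the 6h set. In the genes with 1h peaks outside the rule it did so in 67.1%, more than in members. Btg2 and Hpd, printed above, stand for both kinds, with ratios of 0.86 and 0.09 over their 300 bases.

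Base composition moved with the array signal. Across 10673 promoters, which share arrays and probes, G+C correlated with signal at r = 0.184 to 0.433 on the 6 arrays of 1h, at −0.107 to 0.256 on those of 0h (0.178 on ethanol 0h replicate 2) and at −0.303 to −0.141 on those of 6h. The part of G+C in the members' time course was not tested. Values within classes of G+C are given as a description, since the choice of members favours high 1h values in every class. In 4 equal classes of promoters from the lowest G+C to the highest, the members' median 1h minus 0h difference (5 arrays of 0h) was 0.54, 0.42, 0.41 and 0.41, beside −0.05, 0.14, 0.14 and 0.12 for all promoters. The 1h minus 6h difference was 0.51, 0.32, 0.35 and 0.39 for members and −0.25, 0.05, 0.10 and 0.11 for all promoters. Only 16 member promoters lay in the lowest class, where they were 0.61% of 2614, against 3.62% to 5.01% in the others.

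**Figure D4:**
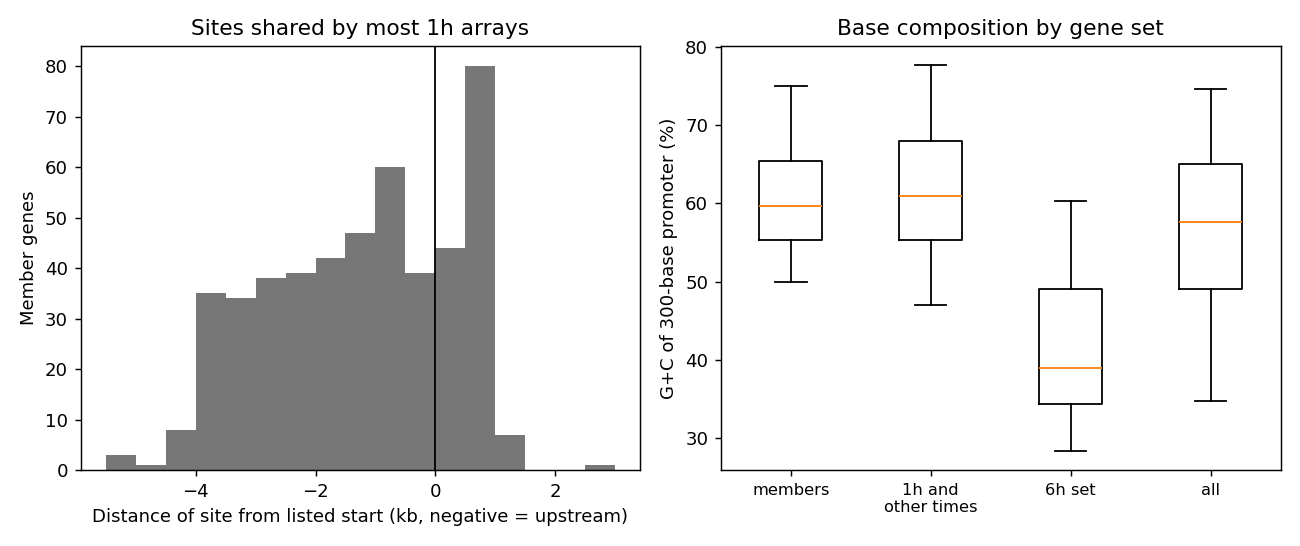
Left, number of members by the distance in kb of the site shared by most 1h arrays from the listed start (negative is upstream). Right, G+C in percent of promoters of members, of other genes with 1h peaks, of the 6h set and of all listed genes; boxes are quartiles with the median, whiskers the 5th and 95th percentiles, and the 6h set lies lowest with a median of 39.0%.

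Short motifs were counted in the same 300 bases on both strands. The kappaB decamer matched in 12.9% of member promoters and 9.07% of all, 11.6% of the other genes with 1h peaks and 3.60% of the 6h set. The GC box (GGGCGG) was in 60.7% of member promoters and 50.1% of all, the E-box (CACGTG) in 11.8% and 8.25%, and the CCAAT box in 40.4% and 39.5%. The TATA element (TATAAA) was in 9.89% and 13.2%, the AP-1 site (TGANTCA) in 7.97% and 6.84%, and the CRE palindrome (TGACGTCA), which holds the shorter TGACG, in 3.30% and 2.55%. In the other genes with 1h peaks the shares from GC box to CRE palindrome were, in this order, 62.7%, 10.7%, 40.2%, 9.45%, 7.54% and 3.38%. They lay near those of members. By their distance from the listed start most sites lie outside these windows, so a match is a description and no binding site.

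The diets were compared at each time with limma over all 14540 promoters. The rule counted both diets together, but at least 5 of 6 arrays of 1h shuts out genes with 1h peaks in a single diet. A small difference between the diets among members at 1h is thus set in part by the choice. No member promoter and no other promoter passed an adjusted p of 0.05 at 1h, 0h or 6h or in the difference between the diets in the change from 0h to 1h (percent called 0). At an unadjusted p under 0.05, 30 of the 452 member promoters stood at 1h (6.64%, beside 8.19% of all), 42 at 0h (9.29% and 7.66%), 55 at 6h (12.2% and 10.9%) and 38 for the change (8.41% and 9.43%). Without ethanol 0h replicate 2 the count at 0h was 3 (0.664%, beside 2.43% of all) and that for the change 24 (5.31% and 6.16%). At 1h, at 6h and for the change these shares lie near those of all promoters. The median standard error of a member's difference was 0.152 at 1h, from a spread estimated over all 20 arrays, ethanol 0h replicate 2 among them.

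At 1h the median member promoter differed between ethanol and carbohydrate by 0.03, as did that of all promoters (0.03), and 264 of 452 were higher with ethanol (58.4%, beside 57.9% of all). Bhlhe40, a clock-linked repressor, had the smallest p: 0.83, 1.36 and 1.15 with ethanol against 0.36, 0.86 and 0.53 with carbohydrate. Its difference was 0.53 ± 0.15 (SE; limma, adjusted p = 0.424). The ranges overlapped, but within each of the 3 slides ethanol was higher, by 0.47, 0.49 and 0.62 (limma with the slide as a fixed term, adjusted p = 0.393). Itih1, a plasma protein that binds hyaluronan, also among the smallest p, had 0.46 ± 0.34 with ethanol and −0.01 ± 0.15 with carbohydrate (SD, n = 3; limma, adjusted p = 0.439). In the window of the 1h arrays this difference turned to −0.037.

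With all arrays no member of the lists passed between the diets at 1h. Egr1 had 1.63 ± 0.52 with ethanol and 1.53 ± 0.19 with carbohydrate (SD, n = 3; limma, adjusted p = 0.941), Cpt1a 0.95 ± 0.46 and 0.61 ± 0.11 (limma, adjusted p = 0.616), and Ier2 0.93 ± 0.18 and 0.60 ± 0.18 (limma, adjusted p = 0.555). With the slide, which at 1h is also the replicate block, as a fixed term, 10 promoters passed (percent called 0.0688), none of them a member's. Leaving out ethanol 1h replicate 1 gave 8 member promoters, all higher with ethanol (1.77%, beside 1.20% of all promoters), among them the list members Bhlhe40 (0.67), Hes1 (1.10) and Itih1 (0.67; limma, adjusted p = 0.0232, 0.0144 and 0.0268), and 2 for the change from 0h to 1h (beside 0.495% of all promoters). Each slide carried 1 array of each diet at 1h, with carbohydrate at the same position on all 3. Without ethanol 1h replicate 1, carbohydrate 1h replicate 1 has no ethanol array of 1h from its slide or array run. In that fit part of the difference between the diets cannot be told apart from slide and run. Hes1, low on both 1h arrays of that slide, differed by 0.64 with all arrays.

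At 0h the member median was 0.15 higher with ethanol (0.06 over all promoters), and 369 of 452 were higher (81.6%, beside 65.1% of all; 18.4% and 34.9% were lower). That rested on replicate 2: without it the median was −0.02 and 192 were higher (42.5%, beside 56.1% of all). Med27 and Naprt (listed as Naprt1) were among the smallest p, with differences of 0.49 ± 0.16 and 0.48 ± 0.16 (SE; limma, adjusted p = 0.612 for each), which fell to 0.30 and 0.18 without that array. The change from 0h to 1h moved likewise, with a member median of −0.10 with it (−0.03 over all promoters) and 0.05 without it (0.01). The change was larger with ethanol in 31.4% of member promoters and 44.7% of all, but without that array in 280 of 452 (61.9%) and 51.6%. For this change Naprt1 and Guca1b were among the smallest p (−0.73 ± 0.23 and −0.71 ± 0.24, SE; limma, adjusted p = 0.432 for each), and without that array they had −0.43 and −0.41.

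At 6h the member median was −0.13, lower with ethanol in 391 of 452 promoters (86.5%), and over all promoters it was −0.10, lower in 80.3% and higher in 19.7%. The largest of these differences by p was Cacna1i, a calcium channel subunit: −0.06, −0.18, 0.31 and −0.12 with ethanol against 0.37, 0.69, 0.40 and 0.42 with carbohydrate. The groups did not overlap, and the difference of −0.48 ± 0.12 (SE) had an adjusted p of 0.435 in limma. Mri1, an enzyme of methionine salvage listed as RGD1307789, differed by −0.41 ± 0.13 and Spdef, an epithelial ETS factor, by −0.34 ± 0.11 (SE; limma, adjusted p = 0.435 for each). In the window of the 1h arrays the 3 differences were −0.041, −0.16 and −0.056. With array weights 94 member promoters passed at 6h, 91 of them lower with ethanol (20.8%, beside 18.9% of all promoters).

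**Figure D5:**
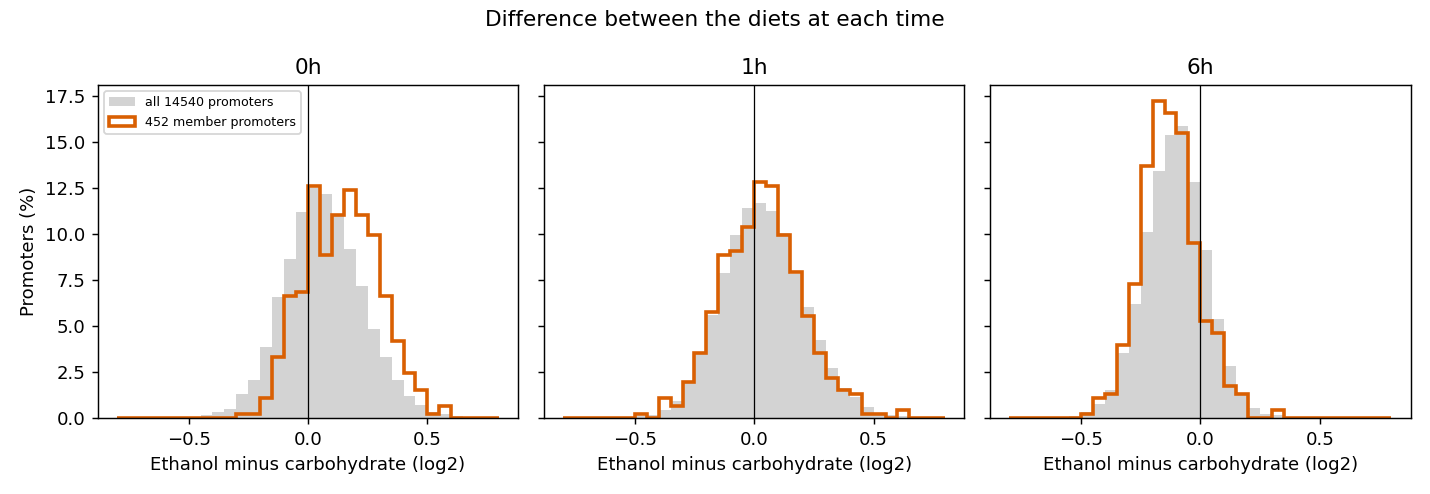
Distribution of the difference in promoter signal between the diets (ethanol minus carbohydrate, log2) at 0h, 1h and 6h, in percent of promoters: grey for all 14540, orange line for the 452 member promoters. The member medians are 0.15, 0.03 and −0.13, and those of all promoters 0.06, 0.03 and −0.10; values beyond the axis are drawn in the end bins.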

How the data were processed

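Per the channel labels, precipitated DNA carried Cy5 and input DNA Cy3, while the labelling text names IgG-precipitated DNA for Cy3. The deposited table of the authors holds 1 log2 ratio per probe for 713735 probes. The authors' peak lists, 1 per array, give a peak score, a false discovery rate (a p-value type measure, up to 0.19961) and the nearest start, per the file headers. Caller, build and normalization: not given in the sources used here.

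Values were multiplied by −1, the likely direction since the authors' peaks are negative, and centred on each array's median. Probes were joined into 14723 regions at gaps over 1000 bp. In each, the signal came from the window (at most 500 bp, 4 or more probes) whose mean over the 20 arrays was highest (14540 regions). Genes were placed by their peaks, and renamed through RefSeq (13678 of 14678 accessions).

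Diets were compared with limma 3.58.1 in R 4.3.3 (two-sided, 6 group means, trend, Benjamini-Hochberg), tested on simulated data for ethanol against carbohydrate at 1h with 14540 promoters: 20% of shifts of 0.4 and 88% of shifts of 0.8 were recovered, with 4 false calls. Python 3.11.15, pandas 2.3.3 and numpy 2.4.6 were used. The precision is limited by the number of arrays. Array run, slide (4 runs, 11 slides) and animal came from array identifiers. At 1h replicate numbers coincide with slides, so the numbers pair the arrays by slide there. Deviations of same-numbered arrays at 1h correlated at 0.504, 0.189 and 0.28, beside −0.427 to 0.291 for the other pairs. At 0h the values were 0.0412 to 0.413, beside −0.366 to 0.168, and at 6h −0.222 to 0.261, beside −0.368 to 0.325. These values do not settle whether the numbers pair the samples at 0h or 6h.

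Members and lists were chosen with earlier results of these data known. Named are all listed members, those with peaks on all 1h arrays alone, the 10 largest in signal, the 3 smallest p per comparison, and genes beside the thresholds; a few genes these rules name are not reported here.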

Additional observations from a re-analysis of the deposited data

Results flagged for a closer look

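In 65 checks, a single array lay far from the others of its group, by the gap to its nearest neighbour over the group's range, in 15. Chance gives about 1 in 20, but the checks overlap, rest on values that chose the members and share arrays, so the count is no test. The array labelled ethanol 0h replicate 2 accounts for 10: it was the highest of the 6 arrays of 0h in members with a peak (344), in median member signal (0.53) and in the signal of Jun (0.85), Gadd45g (1.00), Bcl2l1 (0.69), Tnfrsf1a (1.44), Hpd (0.73), Ppara (0.66), Creb3l3 (0.96) and Tf (0.66). At 1h, carbohydrate replicate 3 was low in median member signal (0.42) and ethanol replicate 1 was high for Creb3l3 (1.25). At 6h, carbohydrate replicate 2 was high in members with a peak (77). Among the ethanol arrays of 6h, replicate 4 was high for Tnfrsf1a (0.061) and replicate 3 for Cpt1a (0.31). The causes were not tested.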

How the results depend on the processing

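The number of members, 478, was 280 with an FDR of at most 0.05. It was 233 where 1h peaks had to overlap those of at least 4 other arrays and 152 where they had to overlap by at least 50% of the shorter. With no peak on the array labelled ethanol 0h replicate 2 it was 134, an alternative chosen after seeing the data, as were current symbols (477) and windows of 6 probes for the medians. Leaving out single arrays gave 484 to 679, the highest without ethanol 0h replicate 2. Member promoters called between the diets, 0 in each comparison, became 1 at 1h with the array run as a term, 1 at 6h with the compared arrays alone and 94 at 6h with array weights. Leaving out single arrays gave 0 to 8 at 1h and 0 to 2 for the change from 0h to 1h, the highest without ethanol 1h replicate 1, and 0 at 0h and 6h. Without ethanol 1h replicate 1, diet at 1h is no longer balanced over slides and runs. The replicate block gave 0 members in each comparison. Only at 1h did every same-numbered pair share a slide.

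The median of 1h minus 0h, 0.35, was 0.17 over the whole tiled region, −0.35 in the deposited direction and −0.041 with the array run as a term, and 0.29 to 0.43 without single arrays. Against 6h, 0.37, it was 0.23 over the tiled region, 0.58 in the window of the 1h arrays, 0.31 with scaled arrays, 0.32 after quantile normalization, −0.37 in the deposited direction and 0.35 to 0.38 without single arrays. The deposited direction turned the signs of all named differences between diets. They became −0.53 for Bhlhe40 and −0.47 for Itih1 at 1h, −0.49 for Med27 and −0.48 for Naprt1 at 0h, and 0.48 for Cacna1i, 0.41 for Mri1 (RGD1307789) and 0.34 for Spdef at 6h. For the change they became 0.72 for Naprt1 and 0.71 for Guca1b. In the window of the 1h arrays Itih1 became −0.037. Except where an alternative itself removes arrays or peaks, the cause was not tested. Naming genes by the Name column alone was not run, since 1 peak list has no such column. Signal over background and 3 or 4 arrays a group limit all comparisons.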

Other observations

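Regions with several listed genes were 87 of the 452 member regions (19.2%), beside 8.67% of 13124 named regions; a region with several genes has more than 1 way to hold a member. Pairs of arrays from the same rat at 0h and 6h listed 1 and 4 members (ethanol 0h replicate 3 and 6h replicate 1) and 7 and 77 (carbohydrate 0h replicate 3 and 6h replicate 2).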
